A study of Drosophila melanogaster with 12 samples.

Results

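Aminoacyl-tRNA synthetase mRNAs were followed through polysome sequencing of *Drosophila* ovaries. Members were taken by name: every gene whose Release 6 symbol holds a three-letter amino acid code directly followed by RS and ends in RS, for the cytoplasmic form, or in RS-m, for the mitochondrial form. Of 35 symbols that met this rule, 33 had their FlyBase ID among the 17023 gene IDs of each count table, 19 of 20 cytoplasmic and 14 of 15 mitochondrial. LeuRS and PheRS-m were not analysed here, because the IDs they carry in the annotation used did not match. All 33 members passed the filter on low counts, which kept 10035 genes.

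There were 12 libraries in 6 groups of 2 replicates, with an input and a polysome library from each lysate. Nop60B RNAi ovaries were depleted of the H/ACA pseudouridine synthase subunit Nop60B in the germline, with nosGAL4 as the germline driver, and were dissected within 2 h of eclosion. The cyst control (*bam RNAi; hs-bam*) carried germline *bam* RNAi with a heat-shock *bam* transgene, and its 1-day-old flies had been heat shocked on successive days to release a wave of dividing cysts. The germarial control was young *UAS-Dcr2;nosGAL4* ovaries, also taken within 2 h of eclosion. Each lysate pooled the ovaries of many flies, so somatic cells of the ovary were included in every library.

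An aminoacyl-tRNA synthetase joins an amino acid to its matching tRNA, the step that supplies charged tRNA to the ribosome. The enzymes fall into class I and class II by the fold of their catalytic domain. Nuclear genes encode both the cytoplasmic enzymes and those that are imported into mitochondria, where they charge the tRNAs used to translate the few mRNAs of the mitochondrial genome. In *Drosophila*, GluProRS is a fusion that charges both glutamate and proline tRNA, and alpha-PheRS and beta-PheRS are the subunits of the cytoplasmic phenylalanine enzyme. Several cytoplasmic synthetases are held together in animal cells by the scaffold proteins AIMP1, AIMP2 and AIMP3.

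Library totals ran between 2780781 counts (cyst control polysomes, replicate 1) and 21626125 counts (germarial control polysomes, replicate 2). The cyst control replicates stood furthest apart. Of the 33 members, 18 were 2-fold or more apart in the polysome replicates of the cyst control and 15 in its inputs, against 0 to 4 in each other group, and 61.5% and 38.6% of all genes tested were that far apart in those cyst groups. The titles of cyst control replicate 1 lack the running number that the other titles carry, and whether it was prepared or sequenced apart is not stated. Cyst control polysome replicate 1 held 3 or fewer counts for 6 of the 14 mitochondrial members, and calls, signs and medians that moved without it are given both ways. Numbers of members called without a library carry no share over all genes here. A shift of the synthetase genes and a shift of all genes cannot be told apart from them. *Nop60B* itself had a CPM (counts scaled to library totals and TMM factors) of 446 and 462 in Nop60B RNAi inputs, 336 and 748 CPM in cyst control inputs, and 1553 and 1776 CPM in germarial control inputs. In inputs it thus lay below the germarial control and inside the range of the cyst control. In polysomes *Nop60B* lay below both controls, with 473 and 466 CPM in Nop60B RNAi ovaries, 561 and 506 CPM in the cyst control, and 1906 and 1689 CPM in the germarial control.

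The cell types in the libraries differed as well. The summed level of the 11 genes matched to a germline marker list was 501 to 604 CPM in the 4 Nop60B RNAi libraries, 1741 to 3353 CPM in cyst control libraries and 2653 to 4107 CPM in germarial control libraries. The entry for nos (nanos) had been matched to Nos, the nitric oxide synthase gene, which is not a germline marker. This sum and the germline counts below include it. Against the germarial control, 7 of these 11 genes were lower in each fraction of Nop60B RNAi ovaries, and tud was higher in polysomes (log2 fold change 1.06). Of all genes tested, 6.35% were lower in inputs and 11.7% in polysomes. In inputs 9 of 10 hemocyte, 8 of 9 muscle, 2 of 8 fat body and 3 of 12 ovarian somatic markers were higher, and in polysomes 10 of 10, 7 of 9, 3 of 8 and 3 of 12 were. The share of all genes that were higher was 11.5% in inputs and 14.1% in polysomes. The hemocyte sum was 4504 to 11787 CPM in Nop60B RNAi libraries and 522 to 618 CPM in germarial control libraries, and the muscle sum was 28000.1 to 35813 CPM against 4915 to 5859 CPM. The fat body sum was 768 to 2018 CPM against 10.0 to 51.2 CPM, and the ovarian somatic sum was 1251 to 1818 CPM against 604 to 991 CPM. Of these marker lists, Sox100B was the single gene with 0 counts in all libraries, and no germline marker was at 0 throughout the Nop60B RNAi libraries. In ovary lysates, fewer cells of a type and less mRNA per cell cannot be told apart, and the part of these shifts in the synthetase values was not tested.

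Cytoplasmic forms were the more abundant ones. On the scale of TMM-scaled CPM per kilobase of exon, averaged over the 12 libraries, they ran between 6.78 for AspRS and 110.2 for TyrRS, and mitochondrial forms between 3.23 for MetRS-m and 25.4 for AspRS-m. The fusion GluProRS was not paired with GluRS-m or ProRS-m, here or in the pairs below. Among the 11 amino acids with a separate gene for each form, the per-kilobase level of the cytoplasmic gene was above that of its mitochondrial counterpart in all 12 libraries for 9 pairs. The exceptions were TrpRS, which lay at 0.421 times the level of TrpRS-m in cyst control polysome replicate 1, and AspRS, which lay at 0.0684 to 0.430 times the level of AspRS-m in the 12 libraries.

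**Figure D1:**
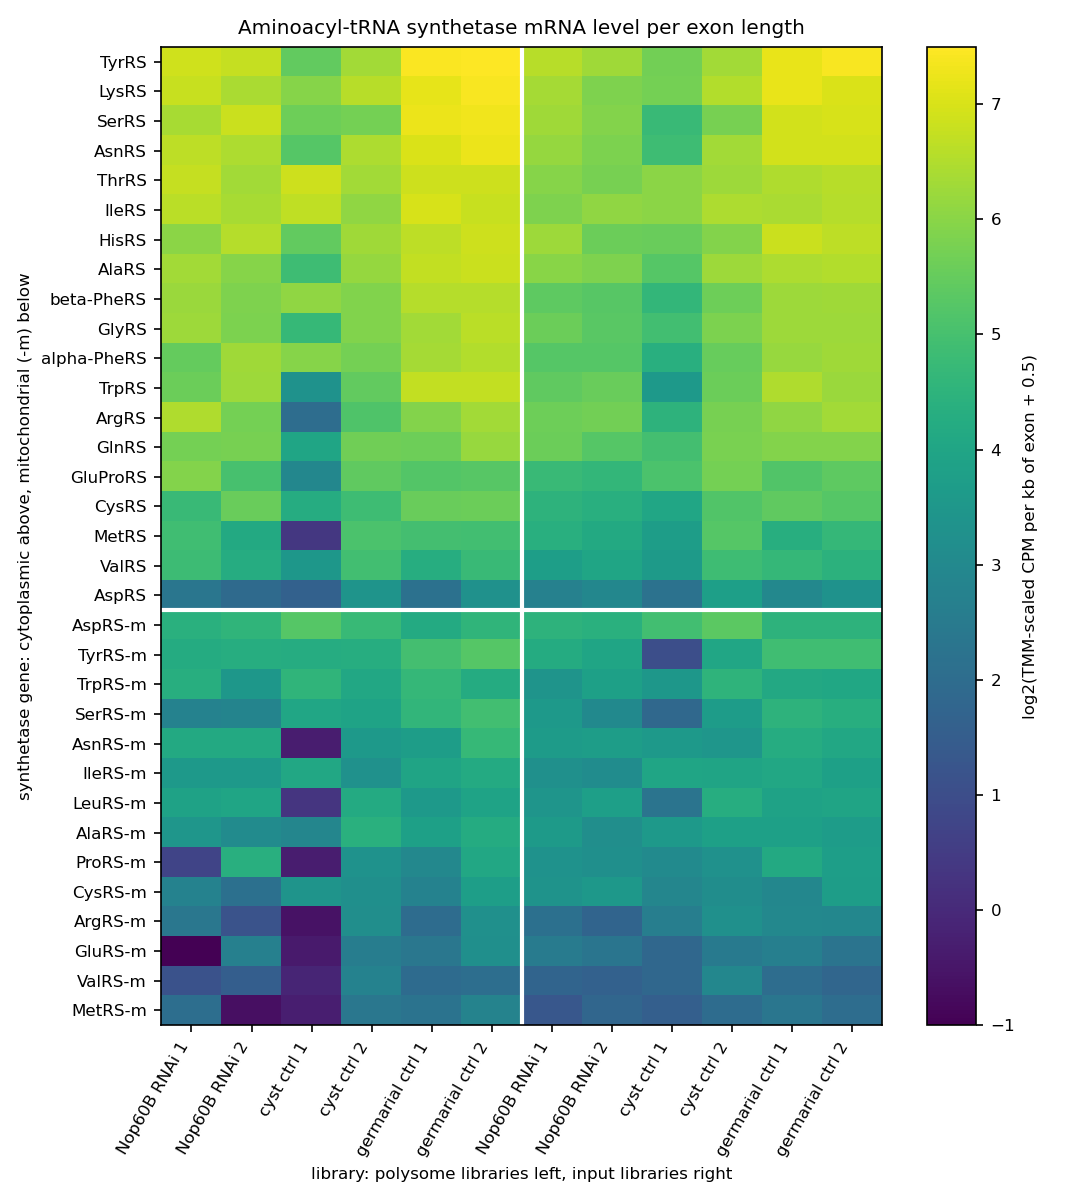
Level of each of the 33 synthetase mRNAs (rows, ordered by mean level within each form) in each library (columns), as log2 of TMM-scaled CPM per kb of exon plus 0.5. Most cytoplasmic rows are brighter than the mitochondrial rows below them, AspRS is the dimmest cytoplasmic row, and cyst control polysome replicate 1 holds most of the darkest cells.

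TyrRS (FBgn0027080, chr3L:16417349-16419302, minus strand), the tyrosine enzyme, had the highest per-kilobase level. In polysomes it had 118 and 107 CPM per kb in Nop60B RNAi ovaries, 43.1 and 78.5 CPM per kb in the cyst control, and 175 and 180.0 CPM per kb in the germarial control. In inputs it had 94.5 and 78.2 CPM per kb in Nop60B RNAi ovaries, 50.6 and 79.0 CPM per kb in the cyst control, and 148 and 171 CPM per kb in the germarial control. In both fractions the germarial control was highest, and Nop60B RNAi overlapped the cyst control in inputs but not in polysomes.

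LysRS (chrX:9606363-9608884), the lysine enzyme, followed with a mean of 102 CPM per kb. Its level in polysomes was 110.4 and 84.2 CPM per kb in Nop60B RNAi ovaries, 61.5 and 96.0 CPM per kb in the cyst control, and 145 and 169 CPM per kb in the germarial control. Its input level was 81.3 and 57.8 CPM per kb in Nop60B RNAi ovaries, 52.3 and 91.2 CPM per kb in the cyst control, and 149 and 128 CPM per kb in the germarial control. The Nop60B RNAi values lay within the range of the cyst control in inputs and below the germarial control in both fractions.

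At the other end of the cytoplasmic forms stood ValRS, the valine enzyme, and AspRS, the aspartate enzyme. ValRS had 27.6 and 18.8 CPM per kb in Nop60B RNAi polysomes, 10.9 and 30 CPM per kb in cyst control polysomes, and 19 and 26.8 CPM per kb in germarial control polysomes. Its inputs had 13.1 and 15.4 CPM per kb in Nop60B RNAi ovaries, 11.9 and 28.8 CPM per kb in the cyst control, and 24.8 and 21.5 CPM per kb in the germarial control. AspRS had 4.56 and 3.29 CPM per kb in Nop60B RNAi polysomes, 2.59 and 9.94 CPM per kb in cyst control polysomes, and 4.00 and 9.33 CPM per kb in germarial control polysomes. Its inputs had 6.10 and 7.19 CPM per kb in Nop60B RNAi ovaries, 4.14 and 13.5 CPM per kb in the cyst control, and 7.31 and 9.45 CPM per kb in the germarial control. For both genes the cyst control replicates spanned all values of the other genotypes in each fraction. Of the 2266 exonic bases of AspRS (chr2R:12877004-12883168, plus strand), 1575 lie opposite exons of Nmda1 or asRNA:CR45141 and 154 are shared with asRNA:CR43468 on its own strand. The strand setting of the counting was not given in the sources used here, so reads of AspRS and its overlapping genes cannot be told apart and its low level is uncertain.

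Of the mitochondrial forms, AspRS-m (chr2L:16827078-16832093) had 20.5 and 23.1 CPM per kb in Nop60B RNAi polysomes, 37.9 and 26.1 CPM per kb in cyst control polysomes, and 18 and 23.1 CPM per kb in germarial control polysomes. Its inputs had 21.9 and 20.4 CPM per kb in Nop60B RNAi ovaries, 29.7 and 40.5 CPM per kb in the cyst control, and 22 and 22 CPM per kb in the germarial control. This gene was highest in the cyst control, with no overlap in either fraction. The next, TyrRS-m (chr2R:24781726-24783500), had 18.3 and 19.1 CPM per kb in Nop60B RNAi polysomes, 18.8 and 18.9 CPM per kb in cyst control polysomes, and 30.3 and 37.9 CPM per kb in germarial control polysomes. In inputs TyrRS-m had 18.4 and 15.4 CPM per kb in Nop60B RNAi ovaries, 1.54 and 16.0 CPM per kb in the cyst control, and 29.4 and 29.2 CPM per kb in the germarial control, again highest in the germarial control.

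The lowest mitochondrial forms were MetRS-m and ValRS-m. MetRS-m had 3.73 and 0.142 CPM per kb in Nop60B RNAi polysomes, 0.314 and 4.68 CPM per kb in cyst control polysomes, and 4.24 and 6.46 CPM per kb in germarial control polysomes, and its inputs had 1.97 and 3.03 CPM per kb in Nop60B RNAi ovaries, 2.49 and 3.53 CPM per kb in the cyst control, and 4.59 and 3.56 CPM per kb in the germarial control. ValRS-m had 1.73 and 2.40 CPM per kb in Nop60B RNAi polysomes, 0.417 and 6.32 CPM per kb in cyst control polysomes, and 3.46 and 3.68 CPM per kb in germarial control polysomes, and its inputs had 2.85 and 2.59 CPM per kb in Nop60B RNAi ovaries, 3.08 and 7.14 CPM per kb in the cyst control, and 3.56 and 3.02 CPM per kb in the germarial control. For both genes the Nop60B RNAi libraries lay below the germarial control in each fraction, with log2 fold changes of -1.47 to -0.28 that did not pass the test (SE 1.07 to 1.34). Another sparse member, GluRS-m, had 0 counts in Nop60B RNAi polysome replicate 1, which allows up to 3 counts, or 0.190 CPM before TMM scaling. It had 10.1 CPM in replicate 2.

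The 250 bases before each gene start were searched on both strands for the DNA replication-related element (DRE, TATCGATA), which the factor DREF binds in many *Drosophila* genes of growth and replication. It was found before 4 of 19 cytoplasmic genes and 0 of 14 mitochondrial genes, and before 10.4% of 9817 tested genes. The windows around the 4 matches are shown because these are the members that hold the element, and it was not tested against the measured changes. They are given 5′ to 3′ on the strand of the gene, in Release 6 coordinates, with the element in capitals.
AlaRS, chr2L:8381765-8381794, minus strand: atctctaaatcTATCGATAtctcatccagt
ArgRS, chrX:15844161-15844190, minus strand: gctgttatcgtTATCGATAggcgacgtgtg
IleRS, chr3L:22288612-22288641, plus strand: tcggaacctacTATCGATAtcgcgaaccca
TrpRS, chr3R:9266958-9266987, minus strand: atatttctcatTATCGATAtttttaacagt
The element began 19 bases before the annotated start in AlaRS, 34 in ArgRS, 42 in IleRS and 72 in TrpRS. An E-box (CACGTG) stood before GlnRS and LeuRS-m, against 2.87% of tested genes, and the ATF4 core (TGATGNAA) before beta-PheRS, against 3.41%. A match is a run of letters and was not tested for binding.

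The summed level of each form was next compared over the 6 groups. Cytoplasmic forms summed to 3398 and 2999 CPM in Nop60B RNAi polysomes, 1850.3 and 2779 CPM in cyst control polysomes, and 4123 and 4471 CPM in germarial control polysomes. In inputs they summed to 2377 and 2092 CPM in Nop60B RNAi ovaries, 1635 and 2889 CPM in the cyst control, and 3679 and 3759 CPM in the germarial control. Nop60B RNAi lay below the germarial control in each fraction, above the cyst control in polysomes, and within the cyst range in inputs.

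Mitochondrial forms varied less over the groups as a sum. They summed to 369 and 368 CPM in Nop60B RNAi polysomes, 393 and 494 CPM in cyst control polysomes, and 460.1 and 607 CPM in germarial control polysomes. In inputs they summed to 366 and 352 CPM in Nop60B RNAi ovaries, 349 and 555 CPM in the cyst control, and 507 and 481 CPM in the germarial control. Nop60B RNAi was lowest in polysomes and overlapped the cyst control in inputs. These sums hide the spread of single members between replicates. In Nop60B RNAi polysomes MetRS-m had 16.1 and 0.611 CPM, and ProRS-m had 1.79 and 30.5 CPM.

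The ratio of the cytoplasmic to the mitochondrial sum was 9.21 and 8.15 in Nop60B RNAi polysomes, 4.70 and 5.62 in cyst control polysomes, and 8.96 and 7.36 in germarial control polysomes. It was 6.49 and 5.94 in Nop60B RNAi inputs, 4.68 and 5.20 in cyst control inputs, and 7.26 and 7.81 in germarial control inputs. The cyst control was lowest in each fraction, and Nop60B RNAi lay between the controls in inputs and overlapped the germarial control in polysomes. With input and polysome libraries paired by number as lysates, the ratio was higher in polysomes than in input for both Nop60B RNAi lysates (9.21 against 6.49, and 8.15 against 5.94). The germarial control lysates differed in direction (8.96 against 7.26, and 7.36 against 7.81), and the cyst control lysates differed little (4.70 against 4.68, and 5.62 against 5.20). As group means on the log2 scale the ratio was 3.11 ± 0.13 in Nop60B RNAi polysomes and 2.63 ± 0.09 in its inputs (SD, n = 2). With 2 libraries a group no permutation test can pass a threshold of 0.05, and the sums carry no test.

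**Figure D2:**
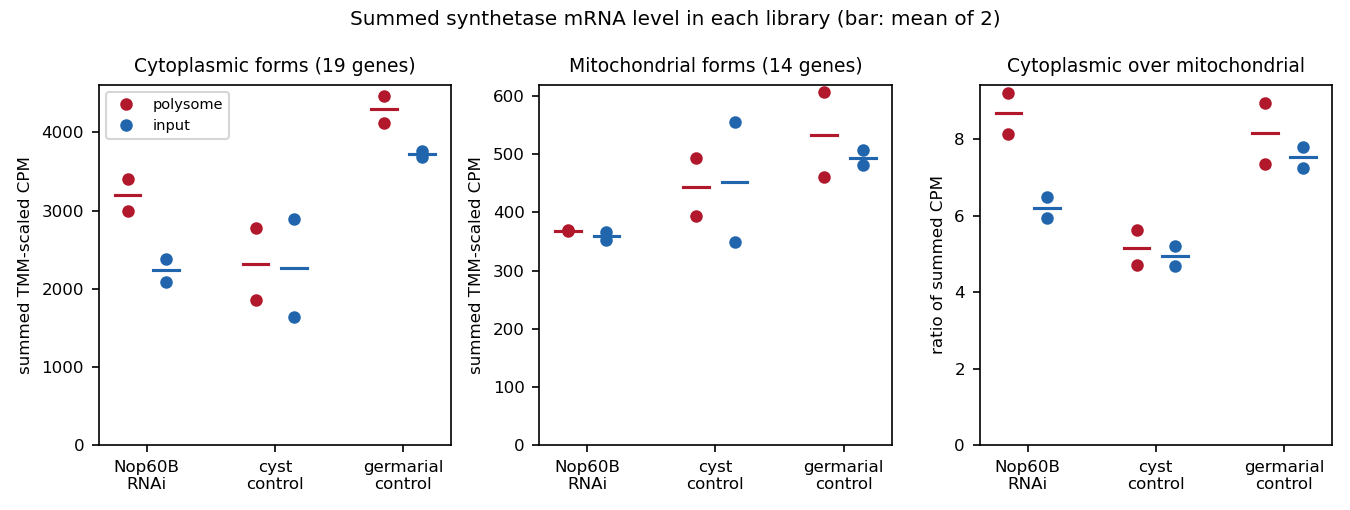
Summed TMM-scaled CPM of the 19 cytoplasmic and the 14 mitochondrial synthetase mRNAs, and the ratio of these sums, by genotype; each point is a library (red polysomes, blue input) and each bar the mean of 2. The ratio is lowest in the cyst control (4.68 to 5.62), and the Nop60B RNAi polysome libraries lie above its inputs.

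Single members were then tested between Nop60B RNAi ovaries and each control. An mRNA was called when its fold change was at least 2 with an unadjusted P under 0.05 in edgeR's quasi-likelihood test, the limits the study's methods give for polysome targets, and Benjamini-Hochberg adjusted p-values over all 10035 genes are given beside it. No member was called in the same direction against both controls, in polysomes or in inputs. Of all genes tested, 6.47% were lower and 6.10% higher against both controls in polysomes, and 2.57% and 5.08% in inputs. Both contrasts use the same Nop60B RNAi libraries.

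Against the germarial control, 1 of 33 members (3.03%) was called lower in polysomes, where 11.7% of all genes were, and 0 were higher, where 14.1% were. The called member was SerRS-m (FBgn0021750, chr3R:15340667-15343218, plus strand), the mitochondrial serine enzyme. Its polysome level was 16.3 and 17 CPM in Nop60B RNAi ovaries and 59.8 and 75.8 CPM in the germarial control, with no overlap, a log2 fold change of -2.03 (SE 0.64). Its adjusted p in edgeR's quasi-likelihood test was 0.0762 (unadjusted 0.00927), short of an adjusted threshold of 0.05, and it was called under each of the 9 other settings run for it (log2 fold change -2.2 to -1.84). Of its exonic bases, 356 lie opposite exons of Nagk, whose reads cannot be told apart without the strand setting. At an adjusted p under 0.05 with no fold minimum, 0 members passed in edgeR's test, where 3.26% of all genes were lower and 5.38% higher. SerRS-m passed in DESeq2's Wald test (adjusted p = 0.00572), where 10.2% were lower and 14.0% higher.

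The cyst control, at 40.7 and 37.3 CPM of SerRS-m in polysomes, also lay above the Nop60B RNAi libraries (log2 fold change -1.23, edgeR unadjusted p = 0.0784), a difference that did not pass the test. In inputs SerRS-m had 29.7 and 19.8 CPM in Nop60B RNAi ovaries, 8.15 and 31.7 CPM in the cyst control and 50 to 55.7 CPM in the germarial control. Its log2 fold change in inputs, Nop60B RNAi against the germarial control, was -1.09 and did not pass the test.

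Among the pairs, which leave out the fusion GluProRS, SerRS-m also formed the one whose forms differed most in that comparison. Its cytoplasmic counterpart SerRS had 158 and 216 CPM in Nop60B RNAi polysomes and 287 and 305 CPM in germarial control polysomes. That is a log2 fold change of -0.66 (SE 0.35, adjusted p = 0.237 in edgeR's test), against -2.03 for SerRS-m. The per-kilobase level of SerRS over SerRS-m was 13.0 and 16.9 in Nop60B RNAi polysomes, 3.09 and 3.59 in cyst control polysomes, and 6.40 and 5.36 in germarial control polysomes, so the Nop60B RNAi libraries stood above all 4 control libraries. In inputs that quotient was 6.58 and 7.82 in Nop60B RNAi ovaries, within the 4.26 to 8.40 of the controls. The difference between the forms was not tested.

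Across the members, 28 of 33 had a negative log2 fold change in this polysome comparison. The median was -0.47 for cytoplasmic forms and -0.79 for mitochondrial forms, beside -0.08 over all genes tested. The cytoplasmic values were tightly grouped (-0.76 to 0.29), with GluProRS at the upper end and the others from -0.76 to 0.02, while mitochondrial values ran between -2.03 and 0.19. Leaving out a Nop60B RNAi polysome library added a second call, MetRS-m without replicate 1 and GluRS-m without replicate 2, 2 members whose replicates were far apart.

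In inputs, Nop60B RNAi against the germarial control called 0 of 33 members, where 6.35% of all genes were called lower and 11.5% higher. At an unadjusted p under 0.05 alone, 6 members passed in edgeR's test, all cytoplasmic and all lower in Nop60B RNAi (LysRS, beta-PheRS, TyrRS, SerRS, alpha-PheRS and ThrRS), where 7.99% of all genes were lower and 12.2% higher, and DESeq2's Wald test called 0. At an adjusted p under 0.05, 0 members passed in either test, where 1.23% of all genes were lower and 2.93% higher in edgeR's test. LysRS lay just short of the fold limit: it had 184 and 131 CPM in Nop60B RNAi inputs and 337 and 291 CPM in germarial control inputs, a 1.99-fold difference (log2 fold change -0.99, SE 0.37, edgeR adjusted p = 0.161). Without Nop60B RNAi input replicate 1, LysRS and HisRS were called lower. Without germarial control input replicate 1 the call was TyrRS, and without replicate 2 it was LysRS.

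All 19 cytoplasmic and 13 of 14 mitochondrial members had negative log2 fold changes in this comparison, with medians of -0.78 and -0.49 beside 0.02 over all genes. The exception, CysRS-m, also marked the pair that differed most: the log2 fold change was -0.94 for CysRS (53.4 and 48.5 CPM in Nop60B RNAi inputs, 103 and 92.6 CPM in germarial control inputs) and 0.06 for CysRS-m (20.6 and 23.2 CPM in Nop60B RNAi inputs, 15.2 and 26.7 CPM in germarial control inputs). The cytoplasmic cysteine mRNA did not overlap between genotypes and its mitochondrial counterpart did, although neither passed the test. The other cytoplasmic members did not overlap either, apart from MetRS (68.6 and 59.6 CPM in Nop60B RNAi inputs, 65.9 and 84.1 CPM in germarial control inputs). The share of all genes without overlap is not given here. Of the exonic bases of CysRS-m, 302 lie opposite exons of CG13016. The summed germline, hemocyte and muscle markers moved in the same libraries as given above.

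**Figure D3:**
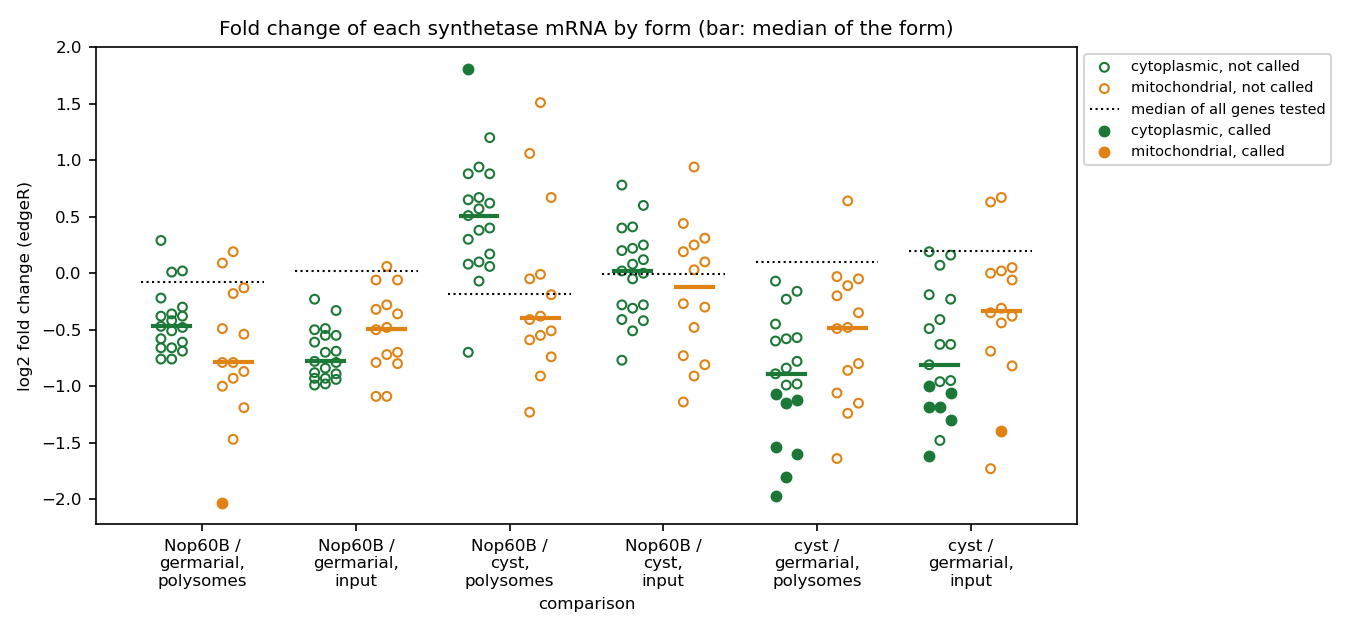
Log2 fold change of each synthetase mRNA (points; filled where called) in 6 comparisons, cytoplasmic forms in green and mitochondrial forms in orange; solid bars are the medians of the forms and dotted lines the median of all genes tested. Most points of both forms lie below the dotted line against the germarial control, and in Nop60B RNAi against cyst polysomes the medians of the forms fall on opposite sides of it (0.51 and -0.39, beside -0.18).

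Against the cyst control, 1 of 33 members was called higher in Nop60B RNAi polysomes, where 9.84% of all genes were, and 0 were lower, where 16.7% were. The called member was ArgRS (FBgn0027093, chrX:15841769-15844145, minus strand), the cytoplasmic arginine enzyme. It had 189 and 111 CPM in Nop60B RNAi polysomes and 7.69 and 75.5 CPM in cyst control polysomes, a log2 fold change of 1.81 (SE 0.77, unadjusted p = 0.0373 and adjusted p = 0.150 in edgeR's test). The groups did not overlap, although the cyst control replicates lay further apart from each other, in fold, than the higher of them lay from either Nop60B RNAi library. At an adjusted p under 0.05, 0 members passed in edgeR's test, where 5.52% of all genes were lower and 3.98% higher. In DESeq2's Wald test 2 passed, SerRS (log2 fold change 1.02, adjusted p = 0.0248) and TyrRS (0.96, adjusted p = 0.0315), where 13.8% of all genes were lower and 10.9% higher. Without cyst control polysome replicate 1 the log2 fold change of ArgRS was 0.98 and not called. The call was also lost without Nop60B RNAi polysome replicate 1 (1.39) and with the compared libraries fitted alone (1.84).

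The arginine pair differed most in this comparison and in the matching input comparison. ArgRS-m had 12.7 and 4.82 CPM in Nop60B RNAi polysomes and 0.452 and 23.7 CPM in cyst control polysomes, a log2 fold change of -0.51 (SE 1.20), with full overlap. In inputs ArgRS had 105 and 109 CPM in Nop60B RNAi ovaries and 47.0 and 114 CPM in the cyst control (log2 fold change 0.40), and ArgRS-m had 10.8 and 7.79 CPM in Nop60B RNAi ovaries and 15.8 and 25.2 CPM in the cyst control (-1.14, SE 1.21). Neither passed the test. Of the exonic bases of ArgRS-m, 325 lie opposite exons of mRpS9.

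By form, 17 of 19 cytoplasmic members had positive log2 fold changes against the cyst control in polysomes, with a median of 0.51, and 3 of 14 mitochondrial members did, with a median of -0.39, beside -0.18 over all genes. This split changed with cyst control polysome replicate 1 as the only cyst library: 9 of 14 mitochondrial members were then positive. That library held 3 or fewer counts for 6 of the 14 mitochondrial members. Without replicate 1, 15 of 19 cytoplasmic members (median 0.16) and 3 of 14 mitochondrial members (median -0.55) were positive, beside -0.22 over all genes, and 2 members, AlaRS-m and ValRS-m, were called lower. ValRS-m was higher instead without replicate 2, so its direction depended on which cyst library was kept. It had 3 counts in cyst control polysome replicate 1 and 354 in replicate 2. In inputs 0 of 33 members were called, where 10.2% of genes were lower and 9.01% higher, and 2.32% and 2.18% at an adjusted p under 0.05. The signs divided evenly there, 17 positive and 16 negative. At an unadjusted p under 0.05, 2 members passed in edgeR's test: SerRS (log2 fold change 0.78, adjusted p = 0.229) and AspRS-m (-0.73, adjusted p = 0.218), where 11.5% of all genes were lower and 9.95% higher, and DESeq2's Wald test called 0. Marker lists moved with this contrast too: 7 of 11 genes of the germline list, Nos among them, were lower in Nop60B RNAi polysomes and 8, without Nos, in its inputs, 7 and 5 of 10 hemocyte markers were higher, 0 of 9 muscle markers were called, and 10 and 12 of 15 heat shock genes were lower. Of all genes, 16.7% were lower and 9.84% higher in polysomes, and 10.2% and 9.01% in inputs. Their part in the synthetase values was not tested.

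The 2 controls were then compared with each other. In polysomes, 7 of 33 members (21.2%) were lower in the cyst control than in the germarial control, where 6.96% of all genes were lower, and 0 were higher, where 14.0% were. All 7 were cytoplasmic: TrpRS, ArgRS, SerRS, TyrRS, AsnRS, AlaRS and GlyRS, with log2 fold changes of -1.97 to -1.07. Of 9 other settings run, the call held in 8 for TrpRS, 6 for GlyRS and 5 each for AlaRS, ArgRS and AsnRS. Without cyst control polysome replicate 1 the calls were SerRS and TyrRS. In inputs 7 of 33 members (21.2%) were lower, where 7.46% of all genes were, and 0 were higher, where 9.85% were. These were SerRS, SerRS-m, TyrRS, alpha-PheRS, AsnRS, beta-PheRS and HisRS, with log2 fold changes of -1.62 to -1.0. The call of SerRS-m, the only mitochondrial one, held in 3 of 9 other settings and was lost in 6. That of AsnRS held in 7, and those of alpha-PheRS, beta-PheRS and HisRS in 8 each. SerRS, TyrRS and AsnRS were lower in both fractions. At an adjusted p under 0.05 with no fold minimum, 2 members passed in polysomes in edgeR's test (SerRS and TyrRS), where 1.82% of all genes were lower and 3.03% higher, and 1 in inputs (SerRS), where 1.98% and 2.07% were. DESeq2's Wald test passed 4 in polysomes (LysRS, SerRS, TrpRS and TyrRS), where 7.44% and 12.9% of all genes passed, and 6 in inputs (alpha-PheRS, beta-PheRS, HisRS, LysRS, SerRS and TyrRS), where 8.04% and 8.08% did. At an unadjusted p under 0.05 alone, edgeR's test passed 9 members in polysomes and 8 in inputs, all lower, where 8.02% and 8.35% of all genes were lower. The exons of HisRS share 255 bases with Bx on the same strand.

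SerRS (FBgn0031497, chr2L:3035493-3037403, minus strand), the cytoplasmic serine enzyme, was lower in both fractions. It had 94.1 and 100.3 CPM in cyst control polysomes and 287 and 305 CPM in germarial control polysomes (log2 fold change -1.60, SE 0.36, edgeR adjusted p = 0.0324). In inputs it had 51.3 and 101 CPM in the cyst control and 232 and 239 CPM in the germarial control (-1.62, SE 0.36, edgeR adjusted p = 0.0337). The polysome replicates of each control were close together, and the groups were 3.04-fold apart.

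TyrRS had 76.4 and 139 CPM in cyst control polysomes and 309 and 319 CPM in germarial control polysomes (-1.54 on the log2 scale, SE 0.36, edgeR adjusted p = 0.0361). In inputs it had 89.6 and 140.0 CPM in the cyst control and 263 and 302 CPM in the germarial control (-1.30, SE 0.36, edgeR adjusted p = 0.0667). The calls of SerRS and TyrRS held in both fractions under each of the 9 other settings run, including the loss of either cyst library. The TyrRS gene lies next to GluRS-m (chr3L:16415292-16417177) on the minus strand; GluRS-m had 0.452 and 9.52 CPM in cyst control polysomes and 7.96 and 15.1 CPM in germarial control polysomes and was not called.

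TrpRS (chr3R:9265027-9266904), the tryptophan enzyme, had the largest polysome change and was chosen after its values were seen. It had 16.3 and 72.2 CPM in cyst control polysomes and 177 and 174 CPM in germarial control polysomes (log2 fold change -1.97, SE 0.70, edgeR adjusted p = 0.126). Without cyst control polysome replicate 1 the log2 fold change was -1.28 and not called. Without that library 2 members were called, SerRS and TyrRS, and without cyst control polysome replicate 2 there were 20. Without germarial control polysome replicate 2 there were 3 (SerRS, TrpRS and TyrRS), and with only the compared libraries fitted there were 4. In inputs the count was 2 (SerRS and TyrRS) without cyst control replicate 1 and 13 without replicate 2.

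**Figure D4:**
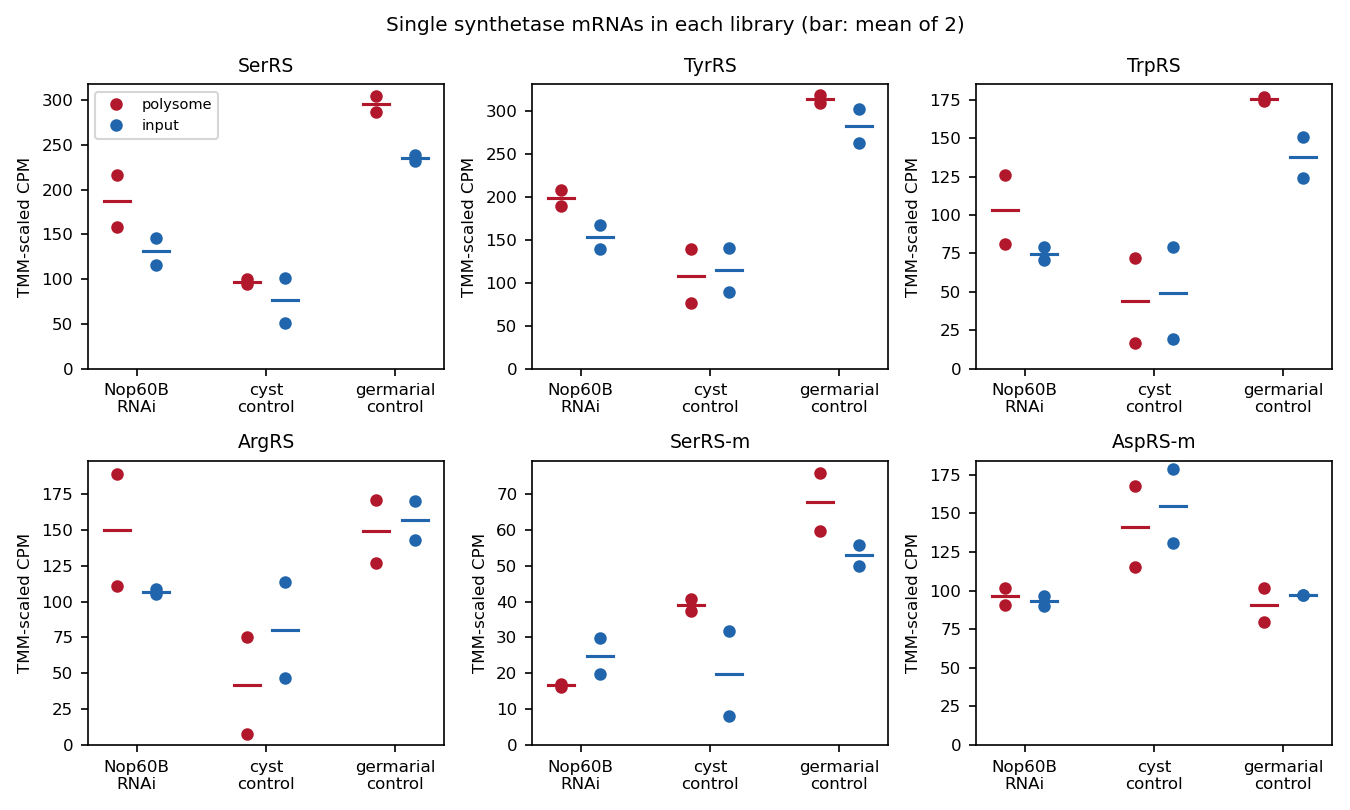
TMM-scaled CPM of 6 synthetase mRNAs by genotype, each point a library (red polysomes, blue input) and each bar the mean of 2. SerRS and TyrRS are separated between the controls in both fractions, ArgRS and TrpRS have widely spread cyst points, among polysome libraries SerRS-m is lowest in Nop60B RNAi (16.3 and 17 CPM), and AspRS-m is highest in the cyst control.

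By sign, all 19 cytoplasmic and 13 of 14 mitochondrial members were negative in the polysome comparison of the controls, with medians of -0.89 and -0.49 beside 0.10 over all genes. Without cyst control polysome replicate 1, 15 of 19 and 9 of 14 were negative, with medians of -0.66 and -0.23 beside 0.17. In inputs 16 of 19 and 9 of 14 were negative, with medians of -0.81 and -0.33 beside 0.20. AspRS-m went the other way in both fractions: 168 and 115 CPM in cyst control polysomes against 79.5 and 102 CPM in the germarial control, and 131 and 179 CPM in cyst control inputs against 97.4 and 97.2 CPM in germarial control inputs (log2 fold change 0.64 in polysomes and 0.67 in inputs, edgeR adjusted p = 0.257 and 0.278). It did not overlap between controls but did not pass the test. Heat shock genes moved with the same contrast: the sum of 17 such genes was 25184 to 65858 CPM in cyst control libraries and 9461 to 11586 CPM in germarial control libraries, and of 15 tested, 11 were called higher in polysomes and 9 in inputs. Of 9 muscle markers 6 were higher in cyst control polysomes and 3 in its inputs, and the muscle sum split the cyst replicates: 28349.9 and 4058 CPM in polysomes and 20209 and 4418 CPM in inputs, against 4915 to 5859 CPM in germarial control libraries. Of 10 hemocyte markers 3 were higher and 1 lower in polysomes, and 4 were higher in inputs, with a sum of 1880.2 and 942 CPM in cyst control polysomes, 2131 and 835 CPM in its inputs and 522 to 618 CPM in germarial control libraries. For both lists replicate 1 was the higher one. Of the 11 genes of the germline list, 3 were higher in polysomes (Nos, spn-E and tud), 2 were lower (aub and grk), and 2 were higher in inputs (spn-E and tud). Of all genes, 6.96% were lower and 14.0% higher in polysomes, and 7.46% and 9.85% in inputs. The part of these lists in the synthetase values was not tested, and heat shock, age and cyst enrichment cannot be told apart in this design.

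Within each genotype, polysomes were set against input of the same lysates. No member was called in any genotype, and in edgeR's test 0 genes passed an adjusted threshold in any of these comparisons. DESeq2's Wald test passed 0 members there, where 1.80% of all genes were lower and 0.349% higher in Nop60B RNAi ovaries. In Nop60B RNAi ovaries 7.36% of all genes were lower and 0.698% higher, in the cyst control 1.63% and 2.74%, and in the germarial control 1.19% and 0.0299%. At an unadjusted p under 0.05, edgeR's test passed ThrRS in Nop60B RNAi ovaries (311 and 231 CPM in polysomes, 179 and 154 CPM in input; log2 fold change 0.70, adjusted p = 0.525), where 7.96% of all genes were lower and 1.39% higher, beta-PheRS in the cyst control (0.79, adjusted p = 0.867), where 2.03% were lower and 3.50% higher, and 0 members in the germarial control, and DESeq2's Wald test called 0 in each. With the lysate as a block, 3 members were called lower in cyst control polysomes than in its inputs, where 3.04% of all genes were: ArgRS, GluProRS and MetRS (log2 fold change -1.70 to -1.24, edgeR adjusted p = 0.657 to 0.710). GluProRS had 38.4 and 233 CPM in cyst control polysomes and 184 and 286 CPM in its inputs, and MetRS had 2.71 and 114 CPM in cyst control polysomes and 43.4 and 128 CPM in its inputs. The low values were those of polysome replicate 1, and without it none of the 3 was called (-0.60 to -0.16). Of the exonic bases of GluProRS, 905 lie opposite asRNA:CR46092.

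By form, 18 of 19 cytoplasmic members had a positive polysome-over-input log2 fold change in Nop60B RNAi ovaries (median 0.51) and 7 of 14 mitochondrial members did (median -0.02), beside -0.09 over all genes. AspRS was the cytoplasmic exception (-0.76). In the germarial control 15 of 19 cytoplasmic and 9 of 14 mitochondrial members were positive (medians 0.21 and 0.13, beside 0.00), and in the cyst control 9 of 19 and 5 of 14 were (medians -0.03 and -0.23, beside -0.08). Without cyst control polysome replicate 1 the cyst control medians changed sign: 16 of 19 and 12 of 14 were positive (0.40 and 0.27, beside 0.01).

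Whether polysome over input differed between genotypes was tested as an interaction. Nop60B RNAi against the germarial control called 0 of 33 members, where 2.65% of all genes were lower and 0.558% higher. The smallest p in edgeR's test was that of SerRS-m (log2 change -0.93, SE 0.88, unadjusted p = 0.312). Nop60B RNAi against the cyst control called 0 members, where 4.86% were lower and 1.42% higher, and the smallest p in edgeR's test was that of GluProRS (log2 change 1.65, SE 0.89, adjusted p = 0.781). DESeq2's Wald test called 0 in each, and 0 members reached an unadjusted p under 0.05. With the lysate as a block, ArgRS (1.91, edgeR adjusted p = 0.600) and GluProRS (2.05, adjusted p = 0.506) were called higher against the cyst control, where 2.83% of all genes were. Without cyst control polysome replicate 1 both were still called (1.04 and 1.10), with the cyst ratio resting on 1 lysate. The median SE of a member's ratio change was 0.77 on the log2 scale, at which a member needed a 3.24-fold change to reach an unadjusted p of 0.05 in edgeR's test.

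Neighbouring parts of the translation machinery were counted for comparison. The shares of all genes called in the same comparisons are given with the ribosomal protein genes below. The scaffold genes AIMP1 and AIMP2 were called lower in cyst control inputs than in germarial control inputs (log2 fold change -1.55 and -1.52, edgeR adjusted p = 0.0499 and 0.111), AIMP2 was lower in polysomes as well (-1.47), and AIMP3 was not called. Against the germarial control, Nop60B RNAi called 0 of 3 scaffold genes in either fraction, and against the cyst control AIMP2 was higher in polysomes (1.25, edgeR adjusted p = 0.129). Cytosolic elongation factor 1, which brings charged tRNA to the ribosome, had members in each direction: in polysomes of Nop60B RNAi against the germarial control, eEF1delta was lower (-1.38, edgeR adjusted p = 0.0309) and eEF1alpha2 higher (3.37, adjusted p = 0.0763). Of 4 mitochondrial elongation factors, mEFTs was lower in that comparison (-1.14) and mEFTu1 in inputs (-1.43, edgeR adjusted p = 0.0392).

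Of 87 cytoplasmic ribosomal protein genes, 83 were tested. Nop60B RNAi against the germarial control called 14 lower and 1 higher in polysomes and 18 lower and 2 higher in inputs (medians -0.78 and -0.83), beside 0 cytoplasmic synthetases with medians of -0.47 and -0.78. Of all genes, 11.7% were lower and 14.1% higher in polysomes there, and 6.35% and 11.5% in inputs. The cyst control against the germarial control called 18 lower and 1 higher in polysomes and 51 lower and 2 higher in inputs (-0.63 and -1.05), where 6.96% and 14.0% of all genes were in polysomes and 7.46% and 9.85% in inputs. Nop60B RNAi against the cyst control called 2 lower and 0 higher in polysomes and 2 in each direction in inputs (-0.16 and 0.24), where 16.7% and 9.84% of all genes were in polysomes and 10.2% and 9.01% in inputs.

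Of 71 mitochondrial ribosomal protein genes, 70 were tested, and Nop60B RNAi against the germarial control called 19 lower in polysomes and 10 in inputs (medians -1.04 and -0.94), where 11.7% and 6.35% of all genes were. The cyst control against the germarial control called 34 and 35 lower (-1.57 and -1.48), where 6.96% and 7.46% of all genes were. In a list of genes linked to uncharged tRNA or to eIF2alpha kinases more widely, Thor, the translation inhibitor 4E-BP, was higher in Nop60B RNAi than in germarial control ovaries in both fractions (log2 fold change 2.01 in polysomes and 2.45 in inputs, edgeR adjusted p = 0.0273 and 0.0222), and it was also higher in cyst control than in germarial control ovaries (1.96 and 1.64, adjusted p = 0.0384 and 0.0714). PEK, an eIF2alpha kinase, was lower in Nop60B RNAi than in the cyst control (-1.84 in polysomes and -1.91 in inputs, edgeR adjusted p = 0.00501 and 0.00547), as was crc, the *Drosophila* ATF4, in polysomes (-1.60, adjusted p = 0.0389). Both were higher in the cyst control than in the germarial control (PEK 1.88 in polysomes and 1.86 in inputs, crc 1.24 in polysomes), and neither was called in Nop60B RNAi against the germarial control. Gcn2, the kinase that senses uncharged tRNA, was not called in any of the 11 comparisons. Of 3 amino acid synthesis genes matched, Shmt and Nmdmc, both of folate metabolism, were lower in Nop60B RNAi than in the germarial control in both fractions (log2 fold change -1.49 to -1.14). They were also lower in the cyst control than in the germarial control (-2.20 to -1.61) and were not called between Nop60B RNAi and the cyst control, where the median of the 3 genes was 0.68 in polysomes and 0.71 in inputs. Of 4 matched genes linked to mitochondrial tRNA charging but outside the naming rule, 3 were tested, and Nop60B RNAi called 0 against either control in either fraction.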

How the data were processed

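The authors prepared poly(A)-selected, directional libraries from ovary lysates and from the polysome fractions of sucrose gradients. Per the submitters' processing notes, reads were aligned to dm6 with HISAT2 2.1.0 and counted with featureCounts 1.4.6, and raw counts per FlyBase gene were deposited without normalization. The strand setting and the handling of reads with several alignments are not given in the sources used here.

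Members were found by symbol in Ensembl release 115, built on Release 6 (dm6), which listed 16647 of 17023 IDs. Counts were analysed in R 4.3.3 with edgeR 4.0.16: filterByExpr, TMM scaling, and a quasi-likelihood fit with 1 mean per group over all 12 libraries, tested on simulated data. The count filter left 10035 genes. Where nothing says that replicates came from separate flies, p-values measure the spread between these libraries. Reads carry no molecular identifiers, so floors cover counting error only. Exon lengths are unions of annotated exons.

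Values per library are given for members called against both controls, the 3 largest called changes per form and direction in each Nop60B RNAi comparison, the 2 highest and 2 lowest members per form by level, the pair that differed most per comparison and members called in a ratio comparison, with at most 3 called genes per pathway list and direction. The members and lists were chosen with earlier results of these data known. Alternatives were DESeq2 1.42.0 size factors and Wald test, no filter, adjusted p, only the compared libraries, a replicate block and leaving out each library. Input and polysome libraries of a number were taken to share a lysate, because the study's methods drew each input from part of a lysate. The titles give the number only. Their deviations from the group means correlated at 0.286 (cyst control), 0.0362 (germarial control) and -0.000803 (Nop60B RNAi). The main fit held no lysate term.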

Additional observations from a re-analysis of the deposited data

How the results depend on the processing

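Counts of synthetase members called moved with the settings as follows. At an adjusted p under 0.05 in edgeR's test with no fold minimum, 0 members passed in Nop60B RNAi against the germarial and cyst controls in polysomes, and 1 in inputs and 2 in polysomes of the cyst control against the germarial control, where DESeq2's Wald test passed 1, 2, 6 and 4. With DESeq2 size factors, or with its Wald test, Nop60B RNAi against cyst control polysomes called 2 (ArgRS and SerRS). Without the filter on low counts, Nop60B RNAi called 1 in inputs against the germarial control, 2 in polysomes against the cyst control, and 2 in the polysome-to-input ratio against the cyst control. With only the libraries compared, Nop60B RNAi called 2 in inputs against the germarial control (ArgRS-m and SerRS-m) and 0 in polysomes against the cyst control, and the controls differed at 4 in polysomes. With the replicate block, which was the lysate for fractions and ratios and the replicate number between genotypes, 3 members were called in cyst control polysomes against input, 2 in the ratio against the cyst control, and 2 in polysomes of Nop60B RNAi against the cyst control, where numbers do not pair the lysates; the block moved no other count by over 1.5 times. With the lysate block and without cyst control polysome replicate 1, a setting chosen after seeing the data, these became 0 in cyst control polysomes against input and 3 in the ratio. Leaving out a library gave 0 to 2 members for Nop60B RNAi against the germarial control in inputs and 1 to 2 in polysomes, 0 to 5 against the cyst control in inputs and 2 to 15 in polysomes, 2 to 13 between the controls in inputs and 2 to 20 in polysomes, 0 to 1 for polysomes against input in Nop60B RNAi and 0 to 11 in the cyst control, and 0 to 1 and 0 to 13 for the ratio against the germarial and cyst controls. The highest count came without replicate 2 of a cyst group for each comparison with the cyst control. With geometric means over members in place of sums, the log2 ratio of cytoplasmic to mitochondrial forms was 2.29 in Nop60B RNAi inputs, 2.13 in cyst control inputs, 2.50 in germarial control inputs and 2.59 in germarial control polysomes, against 2.63, 2.30, 2.91 and 3.02 with sums, and it moved by less than the replicate spread elsewhere. No member called with all libraries changed sign in the settings run. ValRS-m, not called with all libraries, was lower in Nop60B RNAi than in cyst control polysomes without cyst replicate 1 and higher without replicate 2. Cyst control polysome replicate 1 held 3 counts of ValRS-m. The counts of positive and negative members by form without single libraries were chosen after seeing the data. The share of all genes called without a single library is not given here, so those counts cannot be read as particular to the synthetases. The cause of these moves was not tested.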
